A study of Mus musculus with 23 samples.

Results

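The 25 genes described here had far lower levels in the testis of NZO/HlLtJ mice than in that of C57BL/6J and of CAST/EiJ, with NZO/HlLtJ means between 0 CPM for Pnp2 and 9.06 CPM for Fam205a1. They were chosen from 28861 genes by their mean level per strain over both diets, in CPM (a gene's counts per 1e+06 counts of the library). A gene entered where its mean was at least 2 CPM in C57BL/6J and in CAST/EiJ and its NZO/HlLtJ mean was at most 0.25 of the lower of these. The limits were passed by 51 genes, and 26 of them were dropped by name, such as predicted genes and members of some large families. Since strain levels chose the genes, their strain differences are given as a description, without a test.

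The study sequenced polyA RNA from testis of male wild-type mice of inbred strains, to follow strain and diet together. Mice ate a high fat, high sugar diet with 44% fat or a control diet with 10% fat, each with fiber, from 6 weeks of age until collection at 16 weeks. NZO/HlLtJ, a strain prone to obesity and diabetes, gave 4 libraries on 44% fat and 4 on 10% fat. C57BL/6J, the strain behind the mouse reference genome, gave 4 and 4 libraries on these diets, and CAST/EiJ, a wild-derived strain, gave 4 and 3. The labels give each library its own sample number but do not say that each is a separate animal, so p-values measure the spread between these samples, which may be technical.

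The genes span several roles and are taken group by group. Tissue kallikreins of the Klk1b group are secreted serine proteases that lie side by side on mouse chromosome 7, and several have been described in Leydig cells, the steroid-making cells of the testis. Fc receptors such as Fcgr3 bind antibody on macrophages and other immune cells. Ahcy clears S-adenosylhomocysteine, the by-product of methylation reactions, enolases serve glycolysis, and purine nucleoside phosphorylases split purine nucleosides so that their bases can be reused.

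Library totals lay between 21.9 and 78.7 M estimated counts (M, 1e+06 counts), with a median of 35.1 M. Markers of spermatids, the haploid germ cells, summed to 8807 to 11097 CPM in NZO/HlLtJ, 9997 to 11911 CPM in C57BL/6J and 10535 to 11898 CPM in CAST/EiJ, and 6 of the 7 listed genes were lower and 0 higher in NZO/HlLtJ than in both other strains (edgeR). Of the markers of spermatogonia, the germ line's dividing stem and early cells, 4 of 5 were higher and 0 lower, as were 5 of 7 markers of Sertoli cells, which nurse the germ cells. Among 5 markers of spermatocytes, the germ cells in meiosis, 2 were lower and 0 higher. By the same test 15.9% of all genes tested were lower than in both strains and 19.1% higher. The part of these cell types in the results on the 25 genes was not tested. Crisp1, a marker of the epididymis, the duct beside the testis, reached 97.2 CPM in CAST/EiJ 44% fat replicate 2 and 13.0 CPM in C57BL/6J 10% fat replicate 2. The other 4 markers of the epididymis list were not analysed here.

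**Figure D1:**
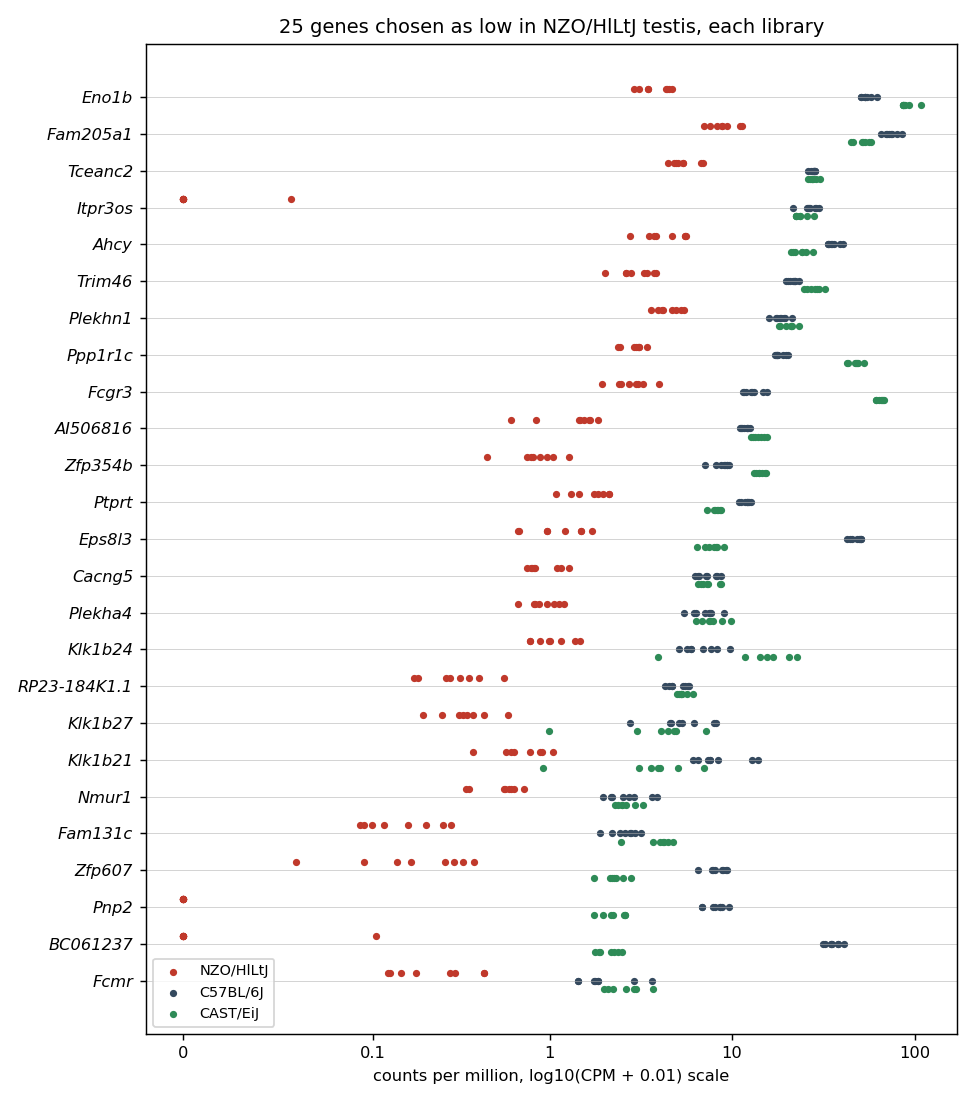
Level of each of the 25 genes in every library, on a log10(CPM + 0.01) axis, with NZO/HlLtJ above C57BL/6J and CAST/EiJ in each row and genes ordered by their mean in the lower of the other strains. The red NZO/HlLtJ points lie left of all other points for 24 genes, and for Klk1b21 the highest NZO/HlLtJ library (1.04 CPM) exceeds the lowest CAST/EiJ library (0.916 CPM).

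For 24 of the 25 genes the highest NZO/HlLtJ library lay below the lowest library of both other strains, as the plot of levels by library shows. The same held for 5.51% of the 13914 genes with at least 2 CPM in both other strains, and nothing is read from this count since the strain means chose the genes. The median NZO/HlLtJ level was 13.3% of the lower of the other strains, and 13 genes averaged under 1 CPM in NZO/HlLtJ. Genes just inside the ratio limit were Plekhn1 at 24.5%, Fcgr3 at 21.8% and Ptprt at 20.9%, and just outside were Ovgp1 at 25.5%, Vtcn1 at 25.7% and Btg3 at 25.7%. At the level limit, Fcmr (2.08 CPM), BC061237 (2.12 CPM) and Pnp2 (2.27 CPM) were just inside, while Crisp1 (1.85 CPM), Ccdc42os (1.77 CPM) and RP23-73F23.5 (1.71 CPM) were just outside. The same rule with C57BL/6J as the low strain kept 24 genes, and with CAST/EiJ as the low strain 184. In whole tissue, fewer cells of a type and less RNA per cell cannot be told apart.

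The genes lay on 11 chromosomes, with 5 on chromosome 7, 4 on chromosome 4 and 3 each on chromosomes 1 and 2. The annotation names 22 as protein coding, AI506816 and RP23-184K1.1 as processed transcripts, and Itpr3os as an antisense RNA. Apart from the kallikreins, no members lay closer to each other than the 1.33 Mb between Klk1b24 and Plekha4. The other strains also differed from each other: 8 of the 25 genes were at least 2-fold apart between CAST/EiJ and C57BL/6J, against 7.34% of the genes with at least 2 CPM in both. BC061237, for example, was 16.9-fold lower in CAST/EiJ than in C57BL/6J, Eps8l3 6.12-fold lower and Fcgr3 4.96-fold higher.

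Pnp2, Itpr3os and BC061237 were at or next to 0 in NZO/HlLtJ. Pnp2, a purine nucleoside phosphorylase (GRCm38 chr14:50955992-50964749, plus strand), had 0 counts in all 8 NZO/HlLtJ libraries. In C57BL/6J its lowest, median and highest libraries had 6.84, 8.36 and 9.65 CPM, and in CAST/EiJ 1.77, 2.24 and 2.59 CPM. From a floor of 3 counts over the 8 NZO/HlLtJ libraries, Pnp2 was at least 803-fold lower in NZO/HlLtJ than in C57BL/6J and at least 223-fold lower than in CAST/EiJ. That floor covers counting error only, and not how reads were split between genes. In the authors' deposited log2 values, Pnp2 lay within 0.1 of the lowest value of the whole table, 7.67, in every NZO/HlLtJ library. Its gene model overlaps that of Pnp, the main purine nucleoside phosphorylase, on the same strand. The reference coding sequences of Pnp2 (915 bases) and Pnp (867 bases) were identical at 850 of 915 alignment columns, 92.9%. Columns with a gap count as differing there, so identity over paired bases alone is higher. A stretch where they are nearly the same shows what short reads must tell apart. Both lines are the transcript strand of the GRCm38 reference, from coding base 49 to 138 of Pnp2 and from 4 to 93 of Pnp, with the differing base in capitals.
Pnp2: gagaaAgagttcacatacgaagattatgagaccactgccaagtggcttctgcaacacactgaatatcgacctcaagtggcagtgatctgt
Pnp: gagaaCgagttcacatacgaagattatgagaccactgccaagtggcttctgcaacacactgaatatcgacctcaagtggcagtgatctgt
Pnp itself averaged 5.75 ± 1.40 CPM in NZO/HlLtJ, 5.81 ± 0.912 CPM in C57BL/6J and 4.44 ± 0.502 CPM in CAST/EiJ (SD, n = 8, 8 and 7). It passed the strain test against CAST/EiJ (log2 fold 0.26, adjusted p 0.0471, edgeR quasi-likelihood test) and not against C57BL/6J (log2 fold -0.08, adjusted p 0.541). The sum of both genes was 5.75 ± 1.40 CPM in NZO/HlLtJ, 14.0 ± 1.37 CPM in C57BL/6J and 6.71 ± 0.725 CPM in CAST/EiJ, so that NZO/HlLtJ stood at 85.7% of the lower of the other strains. Of the Pnp2 values, 65.2% were not whole numbers. The part of read splitting in Pnp2 was not tested.

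Itpr3os is an antisense RNA whose gene has 2 exons with 794 exonic bases (chr17:27099658-27101440, minus strand) and lies inside the gene of Itpr3, an inositol trisphosphate receptor that releases calcium from stores. It had 1 count over all NZO/HlLtJ libraries, in 44% fat replicate 4, and 0 in the other 7. The lowest, median and highest libraries had 21.7, 26.7 and 29.9 CPM in C57BL/6J and 22.4, 23.5 and 28.1 CPM in CAST/EiJ. Per library total, the summed count of NZO/HlLtJ (1) over that of C57BL/6J (7308) was 0.000126 (95% exact interval 3.2e-06 to 0.000705), and over that of CAST/EiJ (7152) it was 0.00014 (3.54e-06 to 0.00078), where the intervals cover counting error only. Itpr3, on the opposite strand, had 18.5 ± 2.54 CPM in NZO/HlLtJ, 25.8 ± 2.10 CPM in C57BL/6J and 23.1 ± 2.26 CPM in CAST/EiJ. It was lower in NZO/HlLtJ than in both (log2 fold -0.55, adjusted p 6.42e-08, and log2 fold -0.42, adjusted p 6.56e-06, edgeR), by far less than Itpr3os. The sources used here do not say whether counting used the strand, so reads of the overlapping stretch cannot be told apart.

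BC061237 (chromosome 14), a protein coding gene whose role is not stated here, had 3.6 estimated counts in 1 NZO/HlLtJ library and 0 in 7. C57BL/6J libraries had 31.7, 35.2 and 41.1 CPM as lowest, median and highest, and CAST/EiJ libraries 1.78, 2.17 and 2.51 CPM. It belongs to a large set of near-identical genes: 21 others in the table match its transcript with at least 90% identity over at least 200 bases. The NZO/HlLtJ sum over BC061237 and these copies was 354 ± 20.5 CPM, against 274 ± 29.2 CPM in C57BL/6J and 573 ± 28.4 CPM in CAST/EiJ, so the set was not low as a whole in NZO/HlLtJ.

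Such near copies, here any other gene that does not overlap and matches the transcript with at least 90% identity over at least 200 bases, were in the table for 10 of the 25 genes. When each of the 10 was summed with its copies, 4 still lay at or under the ratio of 0.25 and 6 did not. Klk1b21, Klk1b24 and Klk1b27 are copies of each other and share 1 sum of chosen genes, which had to stay under the limit. For BC061237, Eno1b and AI506816 the copies alone lie past the limit, whatever the level of the gene. Nothing is therefore read from the counts of 4 and 6. The sources used here do not say how the authors assigned reads that match several copies. A lower level of 1 copy and another split of reads cannot be told apart for AI506816, Fam205a1, BC061237, Eno1b and Ahcy. Nor can they for Pnp2, which is not among the 10 because its relative Pnp overlaps it. The sum of Zfp354b with its copy was still 37.4% of the lower strain. That copy, Zfp354a, had 3.56 ± 0.525 CPM in NZO/HlLtJ, 2.97 ± 0.383 CPM in C57BL/6J and 2.59 ± 0.314 CPM in CAST/EiJ. The part of read splitting in Zfp354b was not tested. All 23 values of Ahcy, AI506816, Eno1b, Fam205a1 and Zfp354b were estimates that were not whole numbers, as were those of Eps8l3, which has no near copy. All values were fractional for 6 of the 25 genes, against 17.9% of the genes with at least 2 CPM in both other strains. At the other end, 12 genes had whole numbers in every library.

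**Figure D2:**
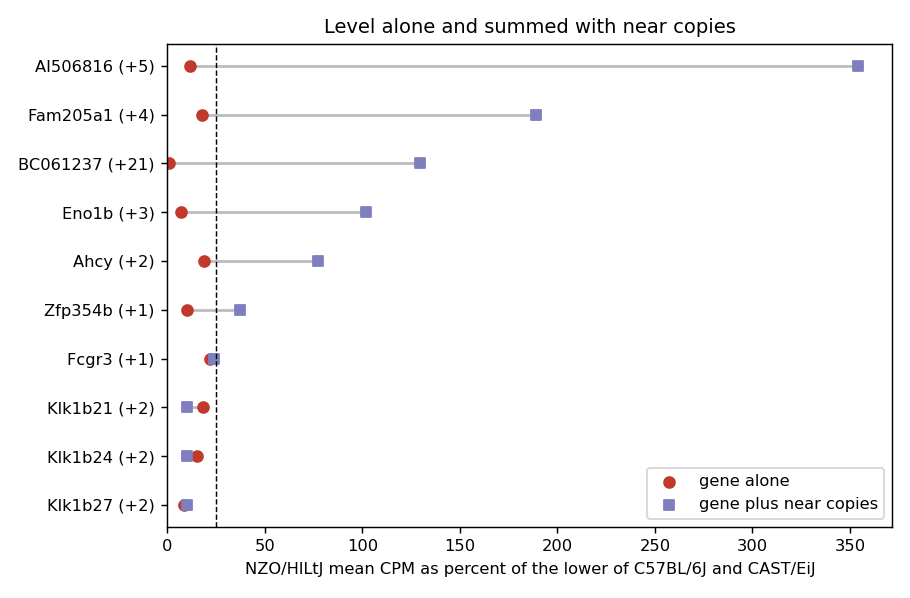
NZO/HlLtJ mean as a percentage of the lower of C57BL/6J and CAST/EiJ, for each of the 10 genes with near copies alone (circles) and summed with them (squares), with the number of copies in brackets and the limit of the rule as a dashed line. Sums of AI506816, Fam205a1, BC061237, Eno1b, Ahcy and Zfp354b lie right of the line, and those of Fcgr3 and the kallikreins left of it.

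Ahcy, S-adenosylhomocysteine hydrolase (chr2:155059310-155074497, minus strand), had 2.75, 4.27 and 5.59 CPM as lowest, median and highest NZO/HlLtJ library. C57BL/6J libraries had 33.6, 35.1 and 40.7 CPM and CAST/EiJ libraries 21.1, 24.1 and 27.7 CPM, with no overlap with NZO/HlLtJ. Gm4737, a copy on chromosome 16 with 1 coding exon where Ahcy has 10, showed the opposite order. It averaged 18.3 ± 1.22 CPM in NZO/HlLtJ, 0.112 ± 0.131 CPM in C57BL/6J and 6.28 ± 1.89 CPM in CAST/EiJ. Gm4737 was higher in NZO/HlLtJ than in C57BL/6J by a log2 fold of 7.38 ± 0.27 (SE, adjusted p 2.56e-19) and than in CAST/EiJ by 1.47 ± 0.15 (adjusted p 1.59e-09, edgeR). The coding sequences are identical at 1292 of 1296 positions, and 2 of the 4 differences fall in the stretch that follows, coding bases 385 to 474, with differing bases in capitals.
Ahcy: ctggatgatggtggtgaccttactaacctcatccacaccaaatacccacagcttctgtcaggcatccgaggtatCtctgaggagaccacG
Gm4737: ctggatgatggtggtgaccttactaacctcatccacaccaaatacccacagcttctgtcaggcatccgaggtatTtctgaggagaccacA
Together with Gm4737 and another copy, Gm9826, Ahcy summed to 23.1 ± 1.13 CPM in NZO/HlLtJ, 36.5 ± 2.65 CPM in C57BL/6J and 30.0 ± 1.86 CPM in CAST/EiJ. The sum in NZO/HlLtJ was 77.0% of that in CAST/EiJ, where Ahcy alone stood at 18.5%.

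Eno1b, a copy of the glycolytic enzyme enolase 1 on chromosome 18, had 2.92, 3.93 and 4.72 CPM as lowest, median and highest library in NZO/HlLtJ. Levels were 50.7, 53.3 and 62.5 CPM in C57BL/6J and 86.3, 87.5 and 107 CPM in CAST/EiJ, far from the NZO/HlLtJ libraries. Its transcript is 99.5% identical to that of Eno1 over 1736 bases. Summed with Eno1 and the pseudogenes Gm4735 and Gm5855, the level was 381 ± 20.6 CPM in NZO/HlLtJ, 389 ± 24.8 CPM in C57BL/6J and 373 ± 17.5 CPM in CAST/EiJ. In that sum the NZO/HlLtJ mean was 102% of the lower of the other means. Gm4735 went the other way from Eno1b, with 28.1 ± 5.60 CPM in NZO/HlLtJ, 15.7 ± 1.78 CPM in C57BL/6J and 2.51 ± 0.58 CPM in CAST/EiJ.

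Fam205a1 (chromosome 4) had 7.01, 8.86 and 11.4 CPM as lowest, median and highest library in NZO/HlLtJ, against 65.7, 73.4 and 85.3 CPM in C57BL/6J and 44.6, 52.4 and 57.3 CPM in CAST/EiJ. Its copy Fam205a4, 98.9% identical over 4146 bases, was higher in NZO/HlLtJ, with 178 ± 12.5 CPM, than in C57BL/6J with 98.8 ± 12.4 CPM or CAST/EiJ with 48.7 ± 4.34 CPM (log2 folds 0.78 and 1.76, adjusted p 3.36e-12 and 6.23e-20, edgeR). Fam205a1 and its 4 copies summed to 236 ± 9.36 CPM in NZO/HlLtJ, 199 ± 14.3 CPM in C57BL/6J and 125 ± 6.09 CPM in CAST/EiJ. AI506816, a noncoding transcript on chromosome 5, had 0.61, 1.51 and 1.85 CPM in NZO/HlLtJ, against 11.03, 11.9 and 12.6 CPM in C57BL/6J and 12.8, 13.8 and 15.6 CPM in CAST/EiJ as lowest, median and highest library. With its 5 copies AI506816 summed to 265 ± 7.84 CPM in NZO/HlLtJ, 247 ± 6.71 CPM in C57BL/6J and 75.0 ± 4.36 CPM in CAST/EiJ, mostly from Gm42427, which had 207 ± 7.68 CPM in NZO/HlLtJ. For both genes the sum was highest in NZO/HlLtJ, the strain in which the gene itself was lowest.

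The KRAB zinc finger genes encode DNA-binding proteins of a class known for silencing transcription. Zfp354b (chromosome 11) had 0.448, 0.848 and 1.28 CPM as lowest, median and highest library in NZO/HlLtJ. It had 7.17, 9.17 and 9.66 CPM in C57BL/6J and 13.3, 14.1 and 15.4 CPM in CAST/EiJ. With its near copy Zfp354a, the sum was 4.43 ± 0.648 CPM in NZO/HlLtJ, 11.8 ± 0.933 CPM in C57BL/6J and 16.9 ± 0.861 CPM in CAST/EiJ, or 37.4% of the lower strain. Of the 6 sums past the limit, that of Zfp354b lay nearest to it. Zfp607 (chr7:27857527-27880825, plus strand) had 0.0314, 0.215 and 0.381 CPM in NZO/HlLtJ, against 6.56, 8.48 and 9.46 CPM in C57BL/6J and 1.75, 2.26 and 2.79 CPM in CAST/EiJ. No near copy of Zfp607 was found among the genes counted. Its best tested match outside the set, C030039L03Rik on chromosome 7, was 85.8% identical over 2207 bases, under the limit for a near copy. Zfp607 and C030039L03Rik summed to 11.8 ± 0.602 CPM in NZO/HlLtJ, 31.6 ± 2.41 CPM in C57BL/6J and 12.9 ± 0.801 CPM in CAST/EiJ. C030039L03Rik alone had 11.6, 23.3 and 10.6 CPM in the same order. Of the Zfp607 values, 91.3% were not whole numbers. The part of read splitting in Zfp607 was not tested.

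Fcgr3, a low-affinity receptor for IgG, and Fcmr, the receptor for IgM, were the immune receptors among the genes. Fcgr3 (chr1:171051174-171064935, minus strand) had 1.95, 2.86 and 3.97 CPM as lowest, median and highest library in NZO/HlLtJ. In C57BL/6J it had 11.5, 12.8 and 15.7 CPM, and in CAST/EiJ 61.2, 65.7 and 68.1 CPM, so that the strains formed separate steps. Fcmr averaged 0.253 ± 0.131 CPM in NZO/HlLtJ, 2.08 ± 0.781 CPM in C57BL/6J and 2.66 ± 0.603 CPM in CAST/EiJ. Without C57BL/6J 10% fat replicate 4, the library with the highest Fcmr value of that strain (3.65 CPM), or without C57BL/6J 44% fat replicate 3, Fcmr no longer passed the rule.

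Fcgr2b, the inhibitory IgG receptor 74.6 kb from Fcgr3, was also lower in NZO/HlLtJ. It had 1.42 ± 0.313 CPM in NZO/HlLtJ, 4.88 ± 0.617 CPM in C57BL/6J and 5.14 ± 1.03 CPM in CAST/EiJ (log2 folds -1.85 and -1.96, adjusted p 1.29e-12 and 1.89e-13, edgeR). Fcgr1, the high-affinity IgG receptor, was higher, with 0.901 ± 0.337 CPM in NZO/HlLtJ, 0.433 ± 0.140 CPM in C57BL/6J and 0.496 ± 0.144 CPM in CAST/EiJ (log2 folds 0.95 and 0.76, adjusted p 0.00138 and 0.00769). Fcgr3 and Fcgr2b share a stretch of 509 coding positions that is 96.5% identical, part of which is shown with the differing bases in capitals (coding bases 236 to 325 of Fcgr3 and 251 to 340 of Fcgr2b).
Fcgr3: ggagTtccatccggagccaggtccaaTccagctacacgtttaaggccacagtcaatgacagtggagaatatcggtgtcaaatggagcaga
Fcgr2b: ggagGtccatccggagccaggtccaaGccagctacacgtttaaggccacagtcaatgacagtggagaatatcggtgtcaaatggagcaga
The sum of both was 4.27 ± 0.882 CPM in NZO/HlLtJ, 17.9 ± 1.53 CPM in C57BL/6J and 69.9 ± 3.66 CPM in CAST/EiJ, 23.8% of the lower strain. Of 5 macrophage markers (Adgre1, Csf1r, Cd68, Mrc1 and Lyz2), 2 were higher in NZO/HlLtJ than in both strains and 0 were lower. Over all genes tested 19.1% were higher and 15.9% lower. The summed level of the markers ran from 101 to 136 CPM in NZO/HlLtJ, 76.2 to 92.1 CPM in C57BL/6J and 85.5 to 93.8 CPM in CAST/EiJ. Mrc1 made the largest part of it, with 63.4 ± 6.84 CPM in NZO/HlLtJ. The part of macrophages in the level of Fcgr3 was not tested.

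Klk1b27, Klk1b21 and Klk1b24 were the only genes of the set that lay together. Klk1b27 (chr7:44052290-44056712) and Klk1b21 (chr7:44102328-44106583) are 45.6 kb apart with 0 annotated genes of the table between them, and Klk1b24 (chr7:44188236-44192455) follows 81.7 kb further, past 3 genes, all on the plus strand. Klk1b27 had 0.196, 0.338 and 0.586 CPM as lowest, median and highest library in NZO/HlLtJ, against 2.78, 5.23 and 8.21 CPM in C57BL/6J and 0.999, 4.50 and 7.22 CPM in CAST/EiJ. Klk1b21 averaged 0.728 ± 0.217 CPM in NZO/HlLtJ, 8.81 ± 2.93 CPM in C57BL/6J and 3.96 ± 1.86 CPM in CAST/EiJ. Klk1b24 averaged 1.06 ± 0.259 CPM in NZO/HlLtJ, 6.93 ± 1.56 CPM in C57BL/6J and 15.1 ± 6.13 CPM in CAST/EiJ. Spread was wide in CAST/EiJ, where 44% fat replicate 4 was the lowest library and 10% fat replicate 2 the highest for each of the 3 genes. Their transcripts are 92.6% to 93.3% identical to each other, yet every value of the 3 was a whole number. Their sum was 2.14 ± 0.479 CPM in NZO/HlLtJ, 21.3 ± 6.02 CPM in C57BL/6J and 23.3 ± 9.72 CPM in CAST/EiJ, 10.0% of the lower strain.

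The promoters of these kallikreins are shown because the genes were low together. Each line runs 5′ to 3′ on the plus strand from 250 bases before to 50 bases after the RefSeq start (GRCm38.p6), for Klk1b27 chr7:44052040-44052339, for Klk1b21 chr7:44102042-44102341 and for Klk1b24 chr7:44187986-44188285. Capitals mark bases of Klk1b27 and Klk1b21 that differ from Klk1b24 in the alignment.
Klk1b27: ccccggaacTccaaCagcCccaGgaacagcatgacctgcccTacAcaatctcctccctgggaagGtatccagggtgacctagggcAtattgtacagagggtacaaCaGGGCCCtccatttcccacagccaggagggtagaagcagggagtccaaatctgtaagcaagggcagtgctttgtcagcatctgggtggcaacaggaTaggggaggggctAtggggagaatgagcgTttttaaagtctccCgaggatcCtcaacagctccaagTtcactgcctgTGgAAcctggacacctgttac
Klk1b21: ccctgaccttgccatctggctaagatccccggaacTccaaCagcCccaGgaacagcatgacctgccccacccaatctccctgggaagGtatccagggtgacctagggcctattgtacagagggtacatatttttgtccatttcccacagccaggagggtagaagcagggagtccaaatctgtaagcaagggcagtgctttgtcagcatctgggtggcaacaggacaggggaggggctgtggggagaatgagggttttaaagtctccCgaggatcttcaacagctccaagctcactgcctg
Klk1b24: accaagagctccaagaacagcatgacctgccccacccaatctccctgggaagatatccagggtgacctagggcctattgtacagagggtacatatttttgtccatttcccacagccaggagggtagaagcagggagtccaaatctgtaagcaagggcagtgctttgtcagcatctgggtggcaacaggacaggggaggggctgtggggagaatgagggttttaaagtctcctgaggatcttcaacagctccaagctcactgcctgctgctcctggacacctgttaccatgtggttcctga
Klk1b27 matched Klk1b24 at 261 of 286 aligned positions, 91.3%, and Klk1b21 at 259 of 265, 97.7%. Searched on both strands, TATAAA, a core promoter motif, was in none of the 3 windows, AGAACA (core of the androgen receptor element) in that of Klk1b24, and AAGGTCA (letters bound by NR5A1, a regulator of steroid-making cells) in that of Klk1b21. These letters are found in 13.6%, 18.97% and 4.72% of all 32851 RefSeq promoters of that length, and none of the motifs contains another. A match describes the letters only. The NR5A1 letters of Klk1b21 lie before the stretch that aligns with Klk1b24 and before the bases where the Klk1b27 window begins. The other windows do not cover that place, so they cannot be compared there. Of the 25 genes, 20 were matched to RefSeq promoters, and 2, 2 and 3 of these held the motifs in that order.

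Among the 12 other kallikrein genes tested, 4 were lower in NZO/HlLtJ than in both other strains (Klk1b22, Klk15, Klk1b26 and Klk1b8) and 0 were higher. Over all 22873 genes tested, 15.9% were lower in NZO/HlLtJ than in both and 19.1% higher. Klk1b22, which lies 6.09 kb beyond Klk1b21, had 0.0759 ± 0.0565 CPM in NZO/HlLtJ, 1.13 ± 0.205 CPM in C57BL/6J and 4.74 ± 2.92 CPM in CAST/EiJ (log2 folds -3.99 and -6.09, adjusted p 9.09e-08 and 3.42e-13, edgeR). Klk1b26 had 0.215 ± 0.086 CPM in NZO/HlLtJ, 5.55 ± 0.955 CPM in C57BL/6J and 0.387 ± 0.214 CPM in CAST/EiJ, so that CAST/EiJ was low too (log2 fold of NZO/HlLtJ against CAST/EiJ -0.89, adjusted p 0.00429). Klk1b8 differed little, with 25.1 ± 2.53 CPM in NZO/HlLtJ, 31.9 ± 2.46 CPM in C57BL/6J and 36.2 ± 2.93 CPM in CAST/EiJ (log2 folds -0.42 and -0.64, adjusted p 8.04e-07 and 2.49e-10). Klk1b3, the next gene after Klk1b24, was higher in NZO/HlLtJ than in C57BL/6J (log2 fold 0.45, adjusted p 0.0017) and lower than in CAST/EiJ (log2 fold -1.32, adjusted p 8.62e-12). Leydig cell markers (Star, Cyp11a1, Cyp17a1, Hsd17b3, Insl3 and Lhcgr) summed to 790 to 1280 CPM in NZO/HlLtJ, 455 to 730 CPM in C57BL/6J and 390 to 593 CPM in CAST/EiJ, and 4 of the 6 were higher and 1 lower in NZO/HlLtJ than in both. Cyp17a1 made the largest part of that sum, with 546 ± 90.6 CPM in NZO/HlLtJ, 283 ± 51.6 CPM in C57BL/6J and 161 ± 32.2 CPM in CAST/EiJ. Cyp11a1 was the lower marker, with 80.6 ± 24.1, 108 ± 16.6 and 148 ± 24.2 CPM in the same order. The part of Leydig cells in the levels of the 3 kallikreins was not tested.

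**Figure D3:**
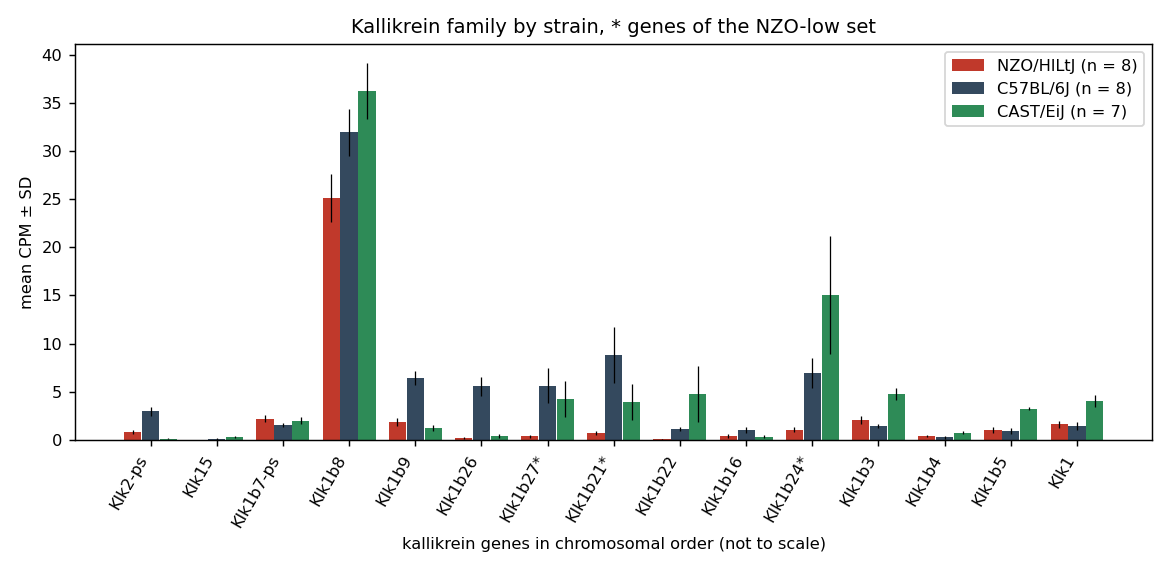
Mean CPM ± SD of the 15 kallikrein genes in chromosomal order for NZO/HlLtJ, C57BL/6J and CAST/EiJ, with stars on Klk1b27, Klk1b21 and Klk1b24. NZO/HlLtJ bars are nearly flat over Klk1b26, Klk1b27, Klk1b21 and Klk1b22, while Klk1b8 stands at 25.1 CPM in NZO/HlLtJ, 31.9 CPM in C57BL/6J and 36.2 CPM in CAST/EiJ.

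Receptors and signalling genes formed the next group, and no near copies of them were found among the genes counted. Nmur1, a receptor for the peptide neuromedin U, averaged 0.549 ± 0.134 CPM in NZO/HlLtJ, 2.76 ± 0.70 CPM in C57BL/6J and 2.65 ± 0.344 CPM in CAST/EiJ. Its relative Nmur2 was near the limit of counting, with 0.359 ± 0.125 CPM in NZO/HlLtJ, 0.0173 ± 0.0252 CPM in C57BL/6J and 0.27 ± 0.108 CPM in CAST/EiJ. Nmur2 was higher in NZO/HlLtJ than in C57BL/6J (log2 fold 4.01, adjusted p 3.17e-07, edgeR). It did not pass against CAST/EiJ (log2 fold 0.29, adjusted p 0.466, edgeR). Cacng5, which belongs to the calcium channel gamma subunits that also guide AMPA receptors, averaged 0.943 ± 0.206 CPM in NZO/HlLtJ, 7.38 ± 0.90 CPM in C57BL/6J and 7.49 ± 0.894 CPM in CAST/EiJ. Of the 3 other Cacng genes tested, 0 were lower and 0 higher in NZO/HlLtJ than in both.

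Ptprt, a receptor-type tyrosine phosphatase (chr2:161521990-162661147, minus strand), had 1.08, 1.81 and 2.14 CPM as lowest, median and highest NZO/HlLtJ library. The libraries of C57BL/6J had 10.9, 12 and 12.7 CPM and those of CAST/EiJ 7.33, 8.31 and 8.67 CPM. Ppp1r1c, an inhibitor of protein phosphatase 1 (chr2:79707780-79818496, plus strand), had 2.37, 3.04 and 3.45 CPM in NZO/HlLtJ, against 17.2, 17.7 and 20.3 CPM in C57BL/6J and 42.8, 47.5 and 52.5 CPM in CAST/EiJ. The strains were fully separate for both, with C57BL/6J in the middle for Ppp1r1c and CAST/EiJ in the middle for Ptprt.

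Eps8l3, an Eps8-like gene of a family that links receptors to the actin cytoskeleton, averaged 1.15 ± 0.387 CPM in NZO/HlLtJ, 47.6 ± 3.22 CPM in C57BL/6J and 7.79 ± 0.825 CPM in CAST/EiJ. All 23 of its values were fractional, and it overlaps another annotated gene on the same strand, Gm43745. Plekhn1 and Plekha4 carry pleckstrin homology domains, which bind membrane lipids. Plekhn1 (chromosome 4) had 3.61, 4.44 and 5.48 CPM as lowest, median and highest library in NZO/HlLtJ, against 15.97, 18.4 and 21.3 CPM in C57BL/6J and 18.0, 21.0 and 23.4 CPM in CAST/EiJ. It lay nearest to the ratio limit, and it left the set without NZO/HlLtJ 44% fat replicate 1 or without C57BL/6J 10% fat replicate 2. Plekha4 averaged 0.944 ± 0.178 CPM in NZO/HlLtJ, 7.11 ± 1.10 CPM in C57BL/6J and 7.85 ± 1.19 CPM in CAST/EiJ.

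Tceanc2, a gene with a domain of transcription elongation factor TFIIS (chr4:107134155-107179116, minus strand), had 4.45, 5.23 and 6.91 CPM as lowest, median and highest library in NZO/HlLtJ. Both other strains had nearly equal levels, 26.2, 28.1 and 28.6 CPM in C57BL/6J and 26.1, 27.6 and 30.3 CPM in CAST/EiJ. Tmem59 overlaps it on the opposite strand and was higher in NZO/HlLtJ, with 89.4 ± 6.01 CPM against 66.0 ± 2.24 CPM in C57BL/6J and 59.97 ± 2.69 CPM in CAST/EiJ (log2 folds 0.36 and 0.47, adjusted p 1.14e-09 and 7.04e-12, edgeR). Trim46, known for organising microtubules in axons (chr3:89234177-89246309, minus strand), had 2.03, 3.06 and 3.83 CPM in NZO/HlLtJ, against 19.7, 21.8 and 23.4 CPM in C57BL/6J and 24.8, 28.6 and 32.1 CPM in CAST/EiJ. Of 59 other Trim genes tested, 10 were lower and 10 higher in NZO/HlLtJ than in both, against 15.9% and 19.1% of all genes tested.

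Fam131c, a protein coding gene of unstated role on chromosome 4, had 0.0833, 0.139 and 0.282 CPM as lowest, median and highest library in NZO/HlLtJ. Its levels were 1.89, 2.69 and 3.18 CPM in C57BL/6J and 2.46, 4.18 and 4.79 CPM in CAST/EiJ. RP23-184K1.1, a noncoding transcript on chromosome 8 (chr8:9125412-9132291, minus strand), had 0.174, 0.299 and 0.563 CPM in NZO/HlLtJ, against 4.32, 5.07 and 5.80 CPM in C57BL/6J and 5.03, 5.30 and 6.10 CPM in CAST/EiJ. No near copy of either was found, and NZO/HlLtJ did not overlap the other strains.

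To see whether low levels reached beyond the genes themselves, the nearest tested gene on each side was examined, 48 distinct genes in all. Of these neighbours 13 were lower in NZO/HlLtJ than in both other strains, 27.1%, against 15.9% of all genes tested, and 11 were higher, against 19.1%. The 48 include 6 that overlap their member, of which Itpr3, Gm12394 and Gm43745 were lower. Fcgr2b, also lower, is a near copy of its member Fcgr3. Such genes may share reads with a member, so the count is not one of separate genes only. At least 4-fold lower than in both were 2 neighbours, against 0.879% of all genes tested. These were Klk1b22 and RP23-73F23.5. RP23-73F23.5, 1.93 kb from Zfp607 on the other strand, was at 0 in all 8 NZO/HlLtJ libraries, against 1.71 ± 0.302 CPM in C57BL/6J and 2.67 ± 0.424 CPM in CAST/EiJ. Perm1, 0.149 kb from Plekhn1, was lower by less, with 1.21 ± 0.307 CPM in NZO/HlLtJ, 3.06 ± 0.387 CPM in C57BL/6J and 2.60 ± 0.479 CPM in CAST/EiJ (log2 folds -1.41 and -1.21, adjusted p 6.91e-10 and 1.24e-08, edgeR). Gm12394, which overlaps Fam205a1 on the same strand, had 11.2 ± 0.914 CPM in NZO/HlLtJ, 24.3 ± 2.65 CPM in C57BL/6J and 24.9 ± 1.83 CPM in CAST/EiJ (log2 folds -1.20 and -1.26, adjusted p 9.94e-16 and 2.05e-16). Perm1, Gm12394, Klk1b3, Tmem59 and Hsd17b14 were chosen after their values were seen.

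A neighbour of Plekha4 went the other way. Hsd17b14, a hydroxysteroid dehydrogenase, lies 0.699 kb from it on the same strand and had 1.95 ± 0.31 CPM in NZO/HlLtJ, 0.064 ± 0.0645 CPM in C57BL/6J and 0.07 ± 0.0412 CPM in CAST/EiJ (log2 folds 4.75 and 4.73, adjusted p 1.89e-13 and 1.69e-13, edgeR). Plekha4 was thus low in NZO/HlLtJ beside a gene that was high there.

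**Figure D4:**
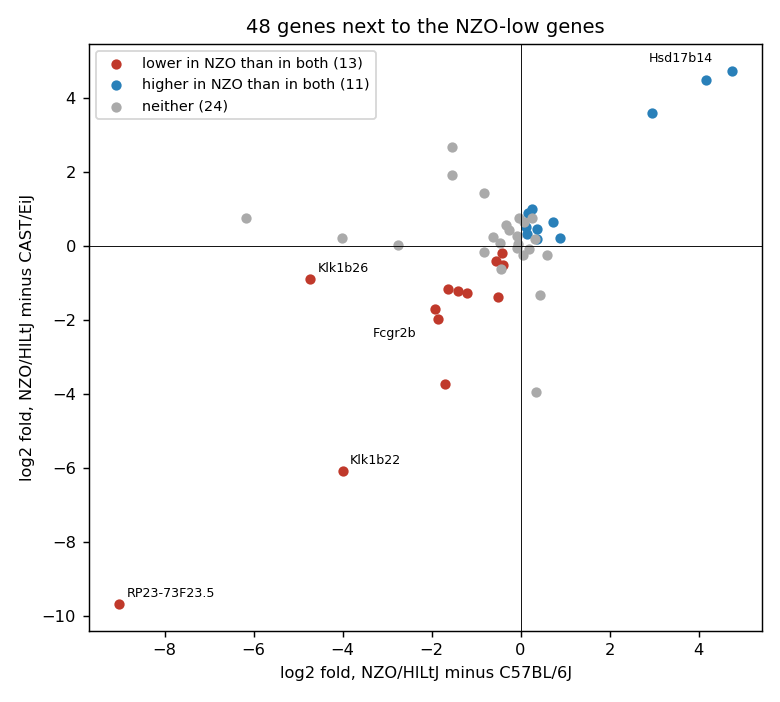
Fitted log2 fold change of the 48 neighbouring genes, NZO/HlLtJ minus C57BL/6J on the horizontal axis and NZO/HlLtJ minus CAST/EiJ on the vertical axis, coloured by whether both passed the test in 1 direction. RP23-73F23.5 at the lower left has 0 counts in NZO/HlLtJ, so its position depends on the fit and is no measured fold, while Hsd17b14 lies at the upper right.

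The best sequence match of each gene that was no member and was tested could be found for 19 of the 25 genes, 18 distinct relatives. Of these 2 were lower in NZO/HlLtJ than in both other strains (Klk1b22 and Fcgr2b) and 3 were higher (Fam205a4, Gm4737 and Klhl20), against 15.9% and 19.1% of all genes tested. At least 4-fold lower was 1 relative, Klk1b22, against 0.879% of all genes tested, and 0 were at least 4-fold higher than in both. Some matches were short, such as 300 bases at 68.3% identity between Plekhn1 and Klhl20, and say little about kinship. Among families by name, Eno4 was lower among 4 other enolase genes, Plekha3 and Plekha5 among 7 Plekha genes, Itpr3 was lower and Itpr1 and Itpr2 higher, and Tceanc was higher. Of the 5 other Eps genes and the 1 other Pnp gene, 0 passed in the same direction against both strains.

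Since Pnp2 acts in purine salvage, 25 other genes of purine salvage and nucleotide turnover were read beside it. In NZO/HlLtJ 5 were lower and 11 higher than in both other strains, against 15.9% and 19.1% of all genes tested. The largest changes, by the smaller of the 2 log2 folds, were in Uox, urate oxidase, which was lower, and in Ada, adenosine deaminase, and Xdh, xanthine dehydrogenase, which were higher. Ada had 4.28 ± 0.478 CPM in NZO/HlLtJ, 2.21 ± 0.56 CPM in C57BL/6J and 1.87 ± 0.275 CPM in CAST/EiJ (log2 folds 0.87 and 1.09, adjusted p 9.26e-07 and 2.89e-08, edgeR). Xdh had 10.9 ± 1.99 CPM in NZO/HlLtJ, 6.19 ± 0.913 CPM in C57BL/6J and 4.38 ± 0.32 CPM in CAST/EiJ (log2 folds 0.75 and 1.21, adjusted p 3.75e-08 and 4.06e-12). Uox was near the limit of counting, with 0.182 ± 0.114 CPM in NZO/HlLtJ, 0.385 ± 0.217 CPM in C57BL/6J and 0.75 ± 0.201 CPM in CAST/EiJ (log2 folds -1.09 and -2.12, adjusted p 0.018 and 1.02e-05).

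Diet was not used to choose the genes, since each strain mean took in both diets. With edgeR's quasi-likelihood test, 0 of the 25 genes passed for 44% against 10% fat within NZO/HlLtJ, where 0.00437% of all genes tested passed. Within C57BL/6J 0 passed, against 0.00874% of all genes, and 0 passed within CAST/EiJ, averaged over strains, and for a diet effect that differs between strains, against 0.0% of all genes in each. Unadjusted p was under 0.05 for 5 genes in NZO/HlLtJ (6.80% of all genes), 1 in C57BL/6J (2.93%), 2 in CAST/EiJ (4.11%), 4 averaged over strains (3.92%) and 3 for the difference (4.90%). With DESeq2 instead, 1 of the 25 genes passed in NZO/HlLtJ, Eno1b, and 0 in the other comparisons. The share of all genes that passed with DESeq2 is not given here, so nothing is read from this count.

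Eno1b had the smallest adjusted p of the 25 for diet. In NZO/HlLtJ its 4 libraries on 44% fat had 3.48, 3.10, 2.92 and 3.48 CPM, against 4.37, 4.42, 4.72 and 4.51 CPM on 10% fat, without overlap. The log2 fold was -0.48 ± 0.10 (SE, adjusted p 0.224, edgeR), and DESeq2 gave the same log2 fold of -0.48 with an adjusted p of 0.0298, in a range of 0.0298 to 0.626 over all settings tried. Means were 52.6 ± 1.29 CPM on 44% fat and 56.4 ± 4.93 CPM on 10% fat in C57BL/6J (SD, n = 4 each), and 93.3 ± 9.93 CPM on 44% fat and 87.6 ± 0.983 CPM on 10% fat in CAST/EiJ (n = 4 and 3). The test of whether the diet effect differed between strains gave Eno1b an adjusted p of 0.63. Ptprt averaged 1.97 ± 0.193 CPM on 44% fat and 1.45 ± 0.373 CPM on 10% fat in NZO/HlLtJ (log2 fold 0.44 ± 0.14, adjusted p 0.688, edgeR), and Cacng5 0.802 ± 0.0341 CPM on 44% fat and 1.08 ± 0.211 CPM on 10% fat (log2 fold -0.44 ± 0.18, adjusted p 0.723). The fitted value of BC061237 in NZO/HlLtJ rests on its 1 library above 0.

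The 3 kallikreins did not pass the test for diet, and their log2 folds were negative in C57BL/6J and CAST/EiJ. The log2 fold was -0.60 ± 0.29 for Klk1b27, -0.47 ± 0.28 for Klk1b21 and -0.39 ± 0.29 for Klk1b24 in C57BL/6J (SE, adjusted p 1 for each, edgeR), and -0.37 ± 0.31, -0.37 ± 0.33 and -0.18 ± 0.28 in CAST/EiJ. In NZO/HlLtJ, where their levels were low, the log2 fold was -0.46 ± 0.59 for Klk1b27, -0.24 ± 0.48 for Klk1b21 and 0.08 ± 0.45 for Klk1b24 (adjusted p 0.905, 0.936 and 0.986, edgeR). Over all 25 genes the median log2 fold for diet was -1.62e-05 in NZO/HlLtJ, -0.06 in C57BL/6J and -0.04 in CAST/EiJ, against -0.0019, -0.0031 and 0 over all genes tested.

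**Figure D5:**
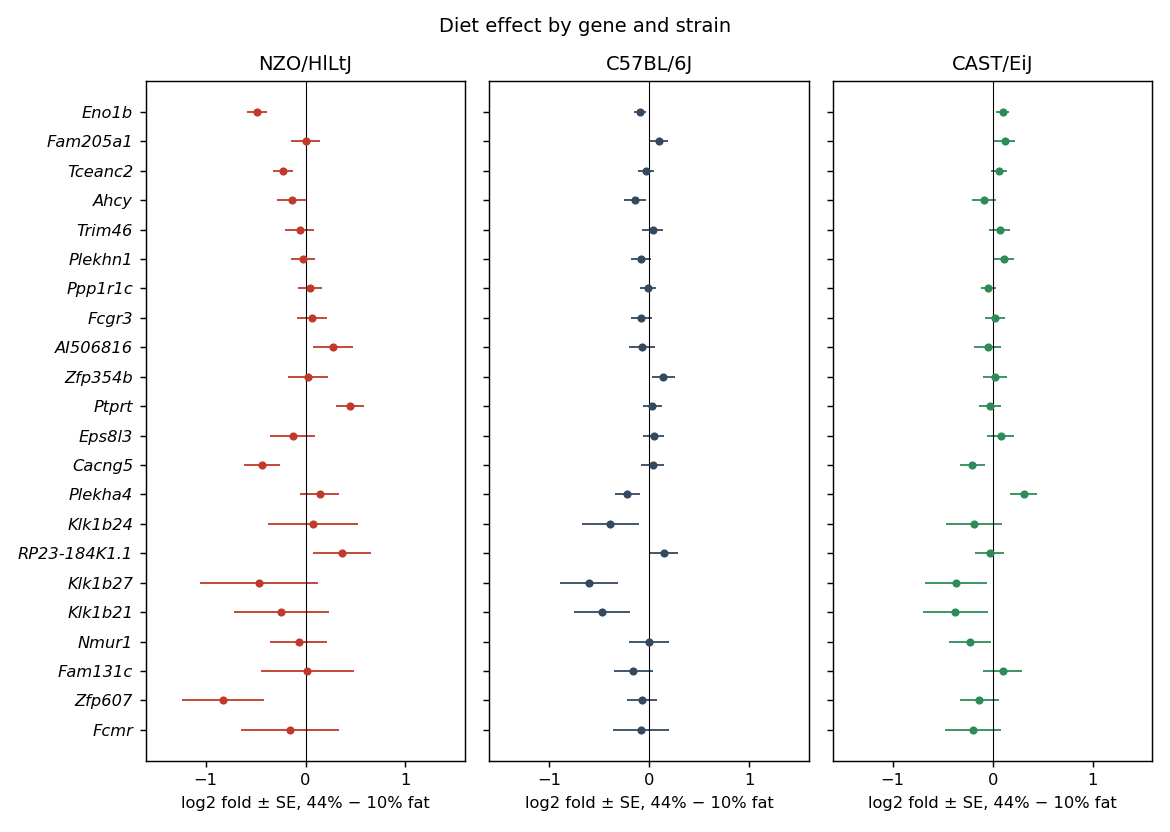
Log2 fold change ± SE of 44% against 10% fat within NZO/HlLtJ, C57BL/6J and CAST/EiJ for 22 of the 25 genes, without Pnp2, Itpr3os and BC061237, which are at or next to 0 in NZO/HlLtJ. Error bars are widest in NZO/HlLtJ, where few counts remain, and 0 of the genes passed the adjusted threshold of edgeR in any strain.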

How the data were processed

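PolyA RNA of testis was read as 100 bp pairs on a NovaSeq, per the labels. The authors deposited estimated counts per gene, of which 23.1% were not whole numbers (tolerance 1e-06), and log2 values of a variance-stabilising transformation; the submitters' processing notes name GRCm38 and DESeq2. The sources used here do not give the aligner, the counting tool, its use of strand or how strain variants were treated.

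CPM were computed from the deposited estimated counts as a share of the column total, after estimates under 1e-06 were set to 0. Before that step each gene had an estimate above 0, however small, in at least 12 libraries. They are not per length, so levels are compared between strains within a gene or sum. For tests, counts were rounded, and 22873 genes kept by filterByExpr entered 1 fit over all 23 libraries with 6 group means (edgeR 4.0.16 in R 4.3.3, TMM, quasi-likelihood F test, Benjamini-Hochberg over all genes, threshold 0.05). A gene counts as lower or higher in NZO/HlLtJ where both strain contrasts, averaged over diets, passed in that direction. The authors' p-values were not used. Near copies and relatives came from blastn (BLAST 2.17.0) of GENCODE M21 transcripts, in place of the planned protein search, for which no protein table was at hand. Alignments used Biopython 1.88. The fit was tested on simulated counts. Over 33 replicate pairs, chi-square divided by its degrees of freedom was 3.34 to 17.6; replicates thus differed beyond counting error. Intervals and floors cover counting error only.

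The members, lists and families were chosen with earlier results of these data known. Every member is named with its strain means. The lowest, median and highest library are given for the 12 with the highest mean in the lower of the other strains and the 8 with the smallest ratio. Neighbours and relatives are named at 4-fold or more, and up to 3 genes of a list. Alternatives were DESeq2 1.42.0, its size factors, no filter, the run of sample numbers as a covariate, other limits of the rule and leaving out each library. Some neighbouring genes are not reported here.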

Additional observations from a re-analysis of the deposited data

Results flagged for a closer look

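In 6 of 121 groups of 4 libraries, 1 library stood apart from the others of its group by Dixon's test, where chance gives about 1 in 20. Ahcy had 35.3 CPM in C57BL/6J 44% fat replicate 1, against 33.6 to 33.9 CPM in the other libraries of the group. BC061237 had 41.1 CPM in C57BL/6J 10% fat replicate 4, against 35.0 to 35.3 CPM, and 0.104 CPM in NZO/HlLtJ 44% fat replicate 4, against 0. Itpr3os had 0.029 CPM in the same NZO/HlLtJ library, which is 1 count, against 0. Where all other libraries are at 0, any value above 0 is flagged. The rate of 1 in 20 thus does not apply to the NZO/HlLtJ flags of BC061237 and Itpr3os. Eno1b had 50.7 CPM in C57BL/6J 44% fat replicate 2, against 53.2 to 53.4 CPM. Tceanc2 had 30.3 CPM in CAST/EiJ 44% fat replicate 1, against 27.5 to 27.9 CPM.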

How the results depend on the processing

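With a ratio limit of 1/3 the rule kept 39 genes, the 25 among them, and with 1/8 it kept 11 of the 25. Other limits, scalings, medians and single diets kept 17 to 36 genes, and leaving out each library 24 to 28. Fcmr left the set with medians or 44% fat alone, and Plekhn1 with 44% fat alone. Scaling by TMM or size factors moved the median of all genes by at most 0.08 on the log2 scale in a strain. For diet in NZO/HlLtJ DESeq2 called 1 of the 25 genes, Eno1b, without a share of all genes beside it, and the cause was not tested. Over all settings its adjusted p ran from 0.0298 to 0.626. Leaving out each library gave 0 to 0 called genes among the 25 in all 5 diet comparisons. It gave 12 to 14 lower neighbours, 2 to 3 lower and 3 to 4 higher relatives, 18 to 19 lower and 13 to 15 higher family members, 4 to 6 lower and 10 to 12 higher purine genes, and 3 lower and 5 higher TRP genes. No paired analysis was possible because the labels give no replicate numbers. At these depths few counts stand behind the NZO/HlLtJ levels of the 13 genes under 1 CPM there.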

Other observations

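A list of 26 tested TRP cation channel genes, none of them among the 25, was also read. In NZO/HlLtJ 3 were lower (Trpv1, Trpv3 and Pkd2l2) and 5 higher than in both other strains, against 15.9% and 19.1% of all genes tested. Trpv1, the heat and capsaicin receptor, had 0.0771 ± 0.0428 CPM in NZO/HlLtJ, 4.97 ± 0.539 CPM in C57BL/6J and 0.588 ± 0.186 CPM in CAST/EiJ (log2 folds -6.04 and -2.99, adjusted p 2.04e-20 and 4.48e-11, edgeR). It missed the rule for the 25 genes because its CAST/EiJ mean was under 2 CPM.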
